A study of Mus musculus with 12 samples.

Results

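The secreted Wnt antagonists described here are 10 genes: Dkk1, Dkk2, Dkk3, Sfrp1, Sfrp2, Sfrp4, Sfrp5, Frzb, Wif1 and Sostdc1. They were listed by name for their known role, with earlier results of these data already known. Each was read through the probe set that carries its symbol and no other. That gave 10 probe sets, 1 for each member, of 35512 on the array (10 of 19938 gene symbols with a probe set of their own), and all 10 carried values on all 12 arrays. The members were measured in sorted mouse back skin cells, 3 arrays in each of 4 groups, as log2 intensities. Clock-positive bulge cells are hair follicle stem cells with bright fluorescence from Per1-Venus, a reporter driven by the clock gene Per1, and clock-negative bulge cells are those with dim fluorescence. Both came from Per1-Venus mice of 18 to 19 days, were gated as alpha6-bright, CD34+ cells, and pooled about 20 mice per sample. The cell phenotype label of the clock-negative samples also names the high Venus gate, so the titles and the design text were taken for the groups. Bmal1 KO epidermis is basal interfollicular epidermis (IFE) from mice 1 year old with an epidermal knockout of Bmal1 (gene symbol Arntl), which encodes an activator of the clock, and wild-type epidermis is the same cell population of wild-type mice of that age, with 5 mice per sample in each. The descriptions of these samples call the KO clock negative and the wild type clock positive, and they are named by genotype here. The promoter that drives the deletion is not given in the sources used here, and no treatment was given in any group.

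Wnt proteins bind Frizzled receptors and LRP co-receptors on the cell surface, which stabilises beta-catenin and lets it act with TCF and LEF factors on target genes. The secreted antagonists stop this outside the cell in different ways: SFRP proteins, Frzb and Wif1 bind Wnt proteins themselves, Dkk1 and Dkk2 bind the LRP co-receptors, and Sostdc1 binds LRP co-receptors and also BMP proteins. Dkk3 is a distant relative of the other Dickkopf proteins whose part in Wnt signalling is not settled. In the hair follicle, Wnt signals are known to start a new growth phase, and resting bulge cells are known to make several of these inhibitors.

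Promoter sequences from RefSeq (GRCm38.p6, 250 bases before to 50 after the annotated start) were matched for 6 members: Dkk1, Dkk2, Sfrp2, Sfrp5, Frzb and Wif1. They were searched on both strands for the E-box CACGTG, which clock activators are known to bind, for the TCF/LEF words CTTTGAT and CTTTGTT, and for AGGTCA, the core of the element read by REV-ERB and ROR receptors. No promoter of the 6 held more than 1 match, so no matches overlap. Wif1 was the 1 member of the 6 with an E-box, at position −210 from the start, and Dkk1 the 1 with a TCF/LEF word, at position −98. Frzb held AGGTCA at position 3 after the start, and Dkk2, Sfrp2 and Sfrp5 held none of the motifs in this window. Of 32851 promoters of the same length, 7.15% held the E-box, 9.33% a TCF/LEF word and 16.3% AGGTCA. A match is a run of letters and was not tested as a binding site. The 250 bases before the start of Dkk1, the member that was lower in clock-positive cells under both scalings, and of Wif1, the member with the E-box, are shown with the matched letters in capitals.
Dkk1, chr19:30549497-30549746, minus strand: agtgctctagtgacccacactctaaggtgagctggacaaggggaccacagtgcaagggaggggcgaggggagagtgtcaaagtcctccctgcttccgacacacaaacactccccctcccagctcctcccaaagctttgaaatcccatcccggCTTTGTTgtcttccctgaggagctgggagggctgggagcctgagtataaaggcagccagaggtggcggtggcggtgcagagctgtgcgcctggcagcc
Wif1, chr10:121033754-121034003, plus strand: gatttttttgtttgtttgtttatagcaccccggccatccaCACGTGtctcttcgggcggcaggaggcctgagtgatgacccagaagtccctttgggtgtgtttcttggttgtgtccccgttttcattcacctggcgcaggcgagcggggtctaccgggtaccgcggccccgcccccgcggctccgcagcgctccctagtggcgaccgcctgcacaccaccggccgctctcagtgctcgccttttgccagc

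Array medians lay between 6.82 and 7.01 in the bulge set and between 7.75 and 7.80 in the epidermis set. Of 35512 probe sets, 34760 were filled in the bulge set and 28853 in the epidermis set, so these sets appear to have been normalized apart and were tested apart. Changes were fitted with limma for genes with 1 symbol, leaving out in each comparison the 30% with the lowest mean, and a gene was called at a Benjamini-Hochberg adjusted p under 0.05 over all genes tested. The bulge comparison was wide: 6311 of 13956 genes were called higher and 2555 lower in clock-positive cells as deposited, 3531 and 2208 after cyclic loess within the set, and 8928 and 1355 after median centring. The epidermis comparison was narrow, with 11 of 13957 genes higher and 16 lower in the KO as deposited, and 44 and 41 after cyclic loess. Bulge markers separated the sorts: 9 of 10 were called higher in clock-positive cells and 0 lower as deposited, with an array mean over the 10 of 10.37 to 10.38 in clock-positive cells and 9.43 to 9.52 in clock-negative cells (after cyclic loess 9 higher and 1 lower). Basal keratins marked the epidermis, Krt5 averaging 13.62 in KO and 13.59 in wild-type arrays. Arntl averaged 9.67 in KO and 9.36 in wild-type arrays (adjusted p = 0.530 in limma) through a probe set whose place relative to the deleted part was not analysed here, while Nr1d1, a known target of the clock activators, averaged 8.49 in KO and 12.47 in wild-type arrays (log2 change −3.98 ± 0.12 SE). Per1, the gene of the reporter, was higher in clock-positive bulge cells by 0.51 ± 0.07 as deposited (adjusted p = 1.95e-04 in limma) and by 0.30 after cyclic loess. Of the 6 clock genes read with it, Per1 included, 3 were called higher and 0 lower as deposited (median change 0.12), and 1 higher and 1 lower after cyclic loess (median −0.08).

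The first comparison asks whether bulge cells with a bright clock reporter hold other amounts of these inhibitors than cells with a dim one. The members went different ways. Dkk3, Sfrp1 and Sostdc1 rose in clock-positive cells as deposited and after cyclic loess, and Dkk1 fell under both scalings. Of these scalings, only the deposited one had Dkk2, Sfrp4 and Sfrp5 called lower, and neither had Sfrp2, Frzb or Wif1 called.

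With every gene tested and none left out as dim, 3 of the 10 members were called higher and 4 lower in clock-positive cells as deposited, where 31.5% of 19937 genes were called higher and 27.9% lower (59.4% in all). After cyclic loess 3 were called higher and 1 lower, where 19.1% of genes were called higher and 13.1% lower (32.2% in all). Among the 7 members above the filter on dim genes the counts were 3 higher and 2 lower as deposited, against 45.2% and 18.3% of 13956 genes (63.5% in all), and 3 higher and 1 lower after cyclic loess, against 25.3% and 15.8% (41.1% in all). In limma the median change of the 10 members was −0.15 as deposited and 0.03 after cyclic loess, against 0.01 and 0.01 over 19937 genes. The shares of members called were thus near those of all genes, and the members did not move as a block. In bulk samples, a change in the number of cells that make a transcript and a change in the amount per cell cannot be told apart.

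Dkk3 rose the most. Its log2 intensity was 10.31, 10.28 and 10.26 in clock-positive arrays 1 to 3, against 9.04, 8.90 and 9.00 in clock-negative arrays 1 to 3. The groups lay far apart beside the spread of either, with SDs of 0.023 and 0.076. The log2 change was 1.30 ± 0.06 (SE, n = 3 per group, adjusted p = 4.38e-07 in limma), a 2.47-fold difference, and 1.16 above the median change of all genes tested. After cyclic loess it was 1.09 ± 0.05 (adjusted p = 1.87e-06 in limma). Leaving out any 1 array kept it between 1.26 and 1.34.

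Sfrp1 encodes a soluble relative of the Frizzled receptors that binds Wnt proteins. It had values of 10.69, 10.73 and 10.86 in clock-positive arrays, against 9.93, 9.91 and 9.91 in clock-negative arrays. The clock-negative arrays were nearly identical and all lay below every clock-positive array. The log2 change was 0.84 ± 0.07 (adjusted p = 6.40e-06 in limma), a 1.79-fold difference, and 0.66 ± 0.06 after cyclic loess (adjusted p = 1.07e-04 in limma).

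Sostdc1, which binds BMP proteins as well as LRP co-receptors, read 10.94, 10.93 and 10.91 in clock-positive arrays, against 10.54, 10.38 and 10.51 in clock-negative arrays. The groups did not overlap, but the difference was smaller than for Dkk3 or Sfrp1: the log2 change was 0.45 ± 0.07 (adjusted p = 3.39e-04 in limma), and 0.30 relative to the median of all genes. After cyclic loess it was 0.29 ± 0.05 (adjusted p = 0.00221 in limma), a 1.22-fold difference.

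Dkk1, the classic inhibitor at the LRP co-receptors, went the other way. Its values were 6.67, 6.80 and 6.58 in clock-positive arrays, against 7.09, 7.24 and 6.95 in clock-negative arrays. All 3 clock-positive arrays lay below all 3 clock-negative arrays. The log2 change was −0.41 ± 0.09 (adjusted p = 0.00251 in limma), a 1.33-fold lower value, and −0.29 ± 0.08 after cyclic loess (adjusted p = 0.0147 in limma).

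**Figure D1:**
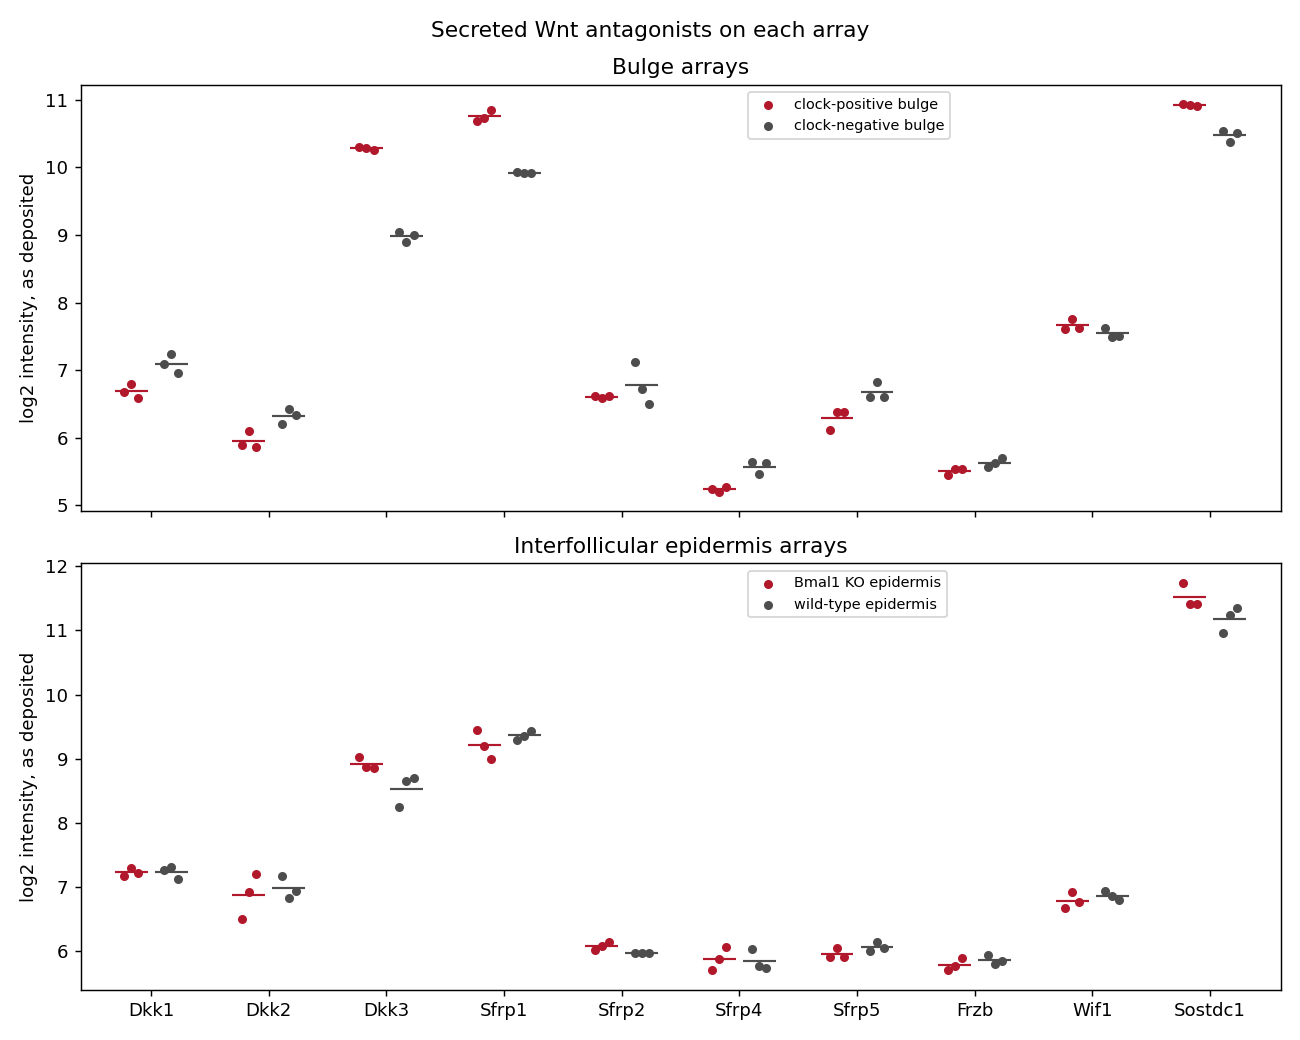
Log2 intensity (vertical axis, as deposited) of each member on each array, with 3 points per group and a bar at the group mean; bulge arrays are above and epidermis arrays below. Dkk3, Sfrp1 and Sostdc1 stand apart between the bulge sorts, with Dkk3 at 10.26 to 10.31 in clock-positive and 8.90 to 9.04 in clock-negative arrays, while in the epidermis the groups differ less.

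Dkk2, Sfrp5 and Sfrp4 had calls that rested on the scaling. Dkk2 and Sfrp4 were left out by the filter on dim genes, so their p-values come from the fit of all genes, as do those of Frzb. Dkk2, which binds the same co-receptors as Dkk1, read 5.89, 6.10 and 5.86 in clock-positive arrays, against 6.20, 6.42 and 6.33 in clock-negative arrays. Its log2 change of −0.37 ± 0.09 (adjusted p = 0.00508 in limma) became −0.13 ± 0.07 after cyclic loess (adjusted p = 0.181), where the groups overlapped. Sfrp5, close kin of Sfrp1, read 6.12, 6.38 and 6.38 in clock-positive arrays, against 6.61, 6.82 and 6.60 in clock-negative arrays. Its change was −0.38 ± 0.09 (adjusted p = 0.00492 in limma) and −0.18 ± 0.08 after cyclic loess (adjusted p = 0.0817); the groups stayed apart under both scalings. Sfrp4 read 5.24, 5.20 and 5.27 in clock-positive arrays, against 5.64, 5.46 and 5.62 in clock-negative arrays. Its change was −0.34 ± 0.07 (adjusted p = 0.00299 in limma) and −0.11 ± 0.08 after cyclic loess (adjusted p = 0.276). All 3 kept a negative change under both scalings, and none of the 3 was called after cyclic loess.

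Wif1, a secreted factor that binds Wnt proteins through a domain unlike that of the SFRP proteins, read 7.60, 7.76 and 7.63 in clock-positive arrays, against 7.63, 7.49 and 7.51 in clock-negative arrays. The groups overlapped, and the change of 0.12 ± 0.07 (95% interval −0.03 to 0.28, adjusted p = 0.147 in limma) was close to the median of all genes (0.15). After median centring, which moved every bulge change up by the same amount and the median of all genes to 0.29, it was 0.26 (adjusted p = 0.00733). Sfrp2, like Sfrp1 a soluble Frizzled relative, read 6.61, 6.59 and 6.62 in clock-positive arrays, against 7.12, 6.72 and 6.50 in clock-negative arrays. Its clock-negative arrays spread the most of any member in the bulge set, with array 1 high. The change was −0.18 ± 0.13 (adjusted p = 0.240 in limma), and it rested on single clock-negative arrays: without array 1 it was −0.0036 (adjusted p = 0.968), and without array 3 it was −0.32 (adjusted p = 0.0408). Frzb, another soluble Frizzled relative, read 5.44, 5.54 and 5.54 in clock-positive arrays, against 5.57, 5.63 and 5.70 in clock-negative arrays. Its sign turned with the scaling: the change was −0.13 ± 0.07 as deposited (adjusted p = 0.122 in limma) and 0.11 ± 0.06 after cyclic loess (adjusted p = 0.174).

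As deposited, the change over all genes moved with the intensity of the probe set. With all 19937 genes in 10 bins of equal size by mean level, the median change was −0.24 in bins 2 and 3, −0.11 in bin 5, 0.11 in bin 6 and 0.20 in bin 10. Dkk3, Sfrp1 and Sostdc1 lay in bin 10, and their changes of 1.30, 0.84 and 0.45 were above its median of 0.20. Dkk1 lay in bin 5, at −0.41 beside −0.11. The part of intensity in the members' changes was not tested. The bin medians of the others were nearer to their own changes: −0.24 for Dkk2 and Sfrp4, −0.22 for Sfrp5 and Sfrp2, −0.24 for Frzb and 0.11 for Wif1. After cyclic loess the median of every bin lay between −0.04 and 0.09.

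**Figure D2:**
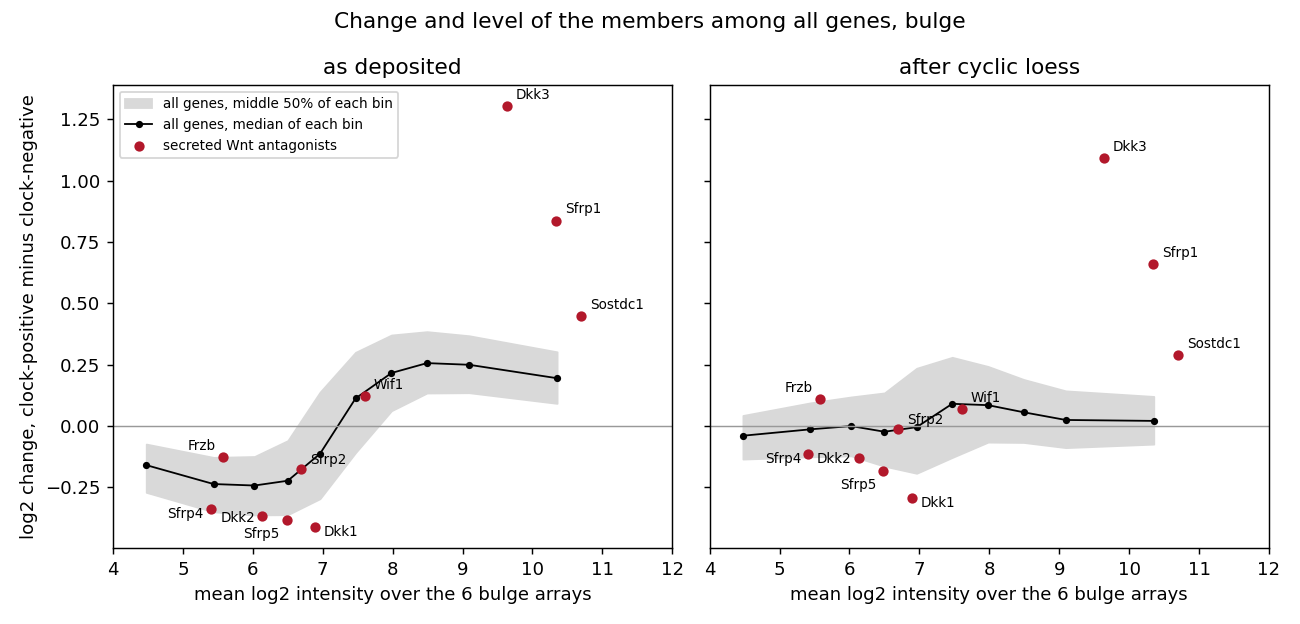
Log2 change in the bulge (vertical axis, clock-positive minus clock-negative) against mean log2 intensity (horizontal axis), as deposited on the left and after cyclic loess on the right. The line and points in black give the median of all genes in 10 bins of level and the grey band their middle 50%; as deposited the bins run from −0.24 to 0.26, and Dkk3, Sfrp1 and Sostdc1 lie above the band under both scalings.

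Across the bulge arrays, the groups of 8 of the 10 members did not overlap as deposited, 3 with clock-positive higher and 5 lower, where 66.4% of 19937 genes did not overlap (35.9% higher, 30.5% lower). After cyclic loess 5 did not overlap, 3 higher and 2 lower, where 47.5% of genes did not (27.2% higher, 20.3% lower). The share as deposited was near that of all genes, as was the share after cyclic loess.

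For the 4 members with a call under both scalings, likeness of other genes was taken as the root-mean-square difference over the 6 bulge arrays between log2 values centred on each gene's mean, among 13955 other genes, and is given as a description. Because the arrays span both sorts, the measure also takes in the difference between the groups. Nearest to Dkk3 were Pdlim3 (0.036), Mitf, the transcription factor of pigment cells (0.040), and Prrg3 (0.044). Their log2 changes were 1.26, 1.24 and 1.23, beside 1.30 for Dkk3. Mitf thus rose where melanocyte markers were called lower, 5 of 5 tested as deposited and 3 of 5 after cyclic loess. Nearest to Sfrp1 were the homeobox gene Hoxc8 (0.030), Cald1, an actin-binding protein of contractile cells (0.032), and Lfng, which modifies Notch receptors (0.035). Sostdc1 had Sema4g (0.0073), Exosc9 (0.013) and Mrpl14 (0.015) nearest to it, and Dkk1 had Rtp3 (0.027), Cabp7 (0.038) and Chga (0.040).

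Many of the members are known from dermal cells, so markers of these were read in the same fits. Of 12 dermal fibroblast markers, 7 were tested, and 2 were called higher (Fbln1 and Col1a1) and 4 lower (Col3a1, Col6a3, Pdgfra and Twist2) as deposited. After cyclic loess 1 was called higher and 2 lower. The array mean over the 12 was 6.57 to 6.65 in clock-positive cells and 6.57 to 6.71 in clock-negative cells. Of 9 dermal papilla markers, 5 were tested, 0 were higher and 4 lower as deposited, and 0 were called after cyclic loess; the array mean was 6.14 to 6.18 in clock-positive cells and 6.36 to 6.45 in clock-negative cells. Among these markers Fbln1, a matrix protein, was highest in clock-positive cells, averaging 9.18, against 8.37 in clock-negative cells. Col1a1, a chain of type I collagen, averaged 9.05 in clock-positive and 8.69 in clock-negative cells. Next came Col1a2, whose groups overlapped, with 7.83, 7.81 and 7.74 in clock-positive and 7.69, 7.87 and 7.72 in clock-negative arrays. Col3a1, among the 4 called lower, read 7.36, 7.31 and 7.41 in clock-positive and 7.49, 7.76 and 7.59 in clock-negative arrays. An array has no true zero, and the fibroblast genes Lum and Dcn were below the filter on dim genes. The part of these cells in the members' levels was not tested.

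Among other cell types, T cell markers were lower in clock-positive cells, 6 of 6 tested under both scalings, with array means of 7.40 to 7.46, against 8.42 to 8.57 in clock-negative cells. Hair shaft and inner root sheath markers were lower in 7 of 7, and melanocyte markers in 5 of 5 as deposited and 3 of 5 after cyclic loess. Endothelial markers were higher in 7 of 8 as deposited and 5 of 8 after cyclic loess. Smooth muscle and pericyte markers were higher in 2 of 5 (1 lower as deposited). Interfollicular basal markers were higher in 3 of 6 as deposited and 2 of 6 after cyclic loess (1 lower). Beside these and the dermal marker counts, 45.2% of all 13956 genes tested were called higher and 18.3% lower as deposited. After cyclic loess the shares were 25.3% and 15.8%. The smooth muscle and interfollicular basal counts as deposited were near the share called higher. Of the bulge markers, Lhx2 averaged 10.95 in clock-positive cells and 9.89 in clock-negative cells, and Krt15 averaged 12.84 in clock-positive and 12.64 in clock-negative cells. Itga6 was the 1 bulge marker called lower after cyclic loess (−0.32 ± 0.05, adjusted p = 0.00226 in limma). As deposited it averaged 10.46 in clock-positive and 10.61 in clock-negative cells (change −0.15 ± 0.07, adjusted p = 0.0766 in limma). The part of these differences in cell make-up in the members' changes was not tested.

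The other genes of the Wnt pathway were read in the same bulge fit, with Lgr5, Lef1, Notum, Apcdd1, Znrf3 and Rnf43 each in 2 of the lists. Over all 13956 genes tested, 45.2% were called higher and 18.3% lower as deposited, and 25.3% and 15.8% after cyclic loess, and the counts of each list stand beside these shares. Of 24 receptor and R-spondin genes tested, 14 were higher and 2 lower in clock-positive cells as deposited, and 13 and 1 after cyclic loess (median change 0.26 and 0.20, against 0.15 and 0.04 over 13956 genes). The R-spondin receptor Lgr5, itself a bulge marker, averaged 10.08 in clock-positive and 8.74 in clock-negative cells. The Frizzled receptors Fzd2, Fzd3 and Fzd7 rose by 1.29 ± 0.06, 1.28 ± 0.08 and 0.89 ± 0.06. Of 20 intracellular mediators 17 were higher and 0 lower as deposited, and 12 and 1 after cyclic loess. Tcf7l1, the repressive TCF factor of bulge cells, rose by 1.11 ± 0.06, Tcf7l2 by 0.72 ± 0.06, the co-repressor Tle1 by 0.60 ± 0.06 and Lef1 by 0.66 ± 0.07.

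Among Wnt ligands, more genes were called lower than higher. Of 18 ligand and ligand secretion genes tested, 6 were lower and 1 higher as deposited, and 8 and 1 after cyclic loess. Wnt9b, Wnt16, Wnt5a and Wnt10b, called under both scalings, were at −0.58 ± 0.10, −0.44 ± 0.07, −0.41 ± 0.07 and −0.35 ± 0.07. The 1 that rose was Porcn, at 0.32 ± 0.07, an enzyme that attaches the lipid Wnt proteins need for secretion. Targets and feedback genes were split, with 5 higher and 3 lower of 15 as deposited and 4 and 4 after cyclic loess. Nkd1, which acts inside the cell as a feedback inhibitor, rose by 0.64 ± 0.07, beside Lef1 and Lgr5, while the receptor gene Tnfrsf19 fell to 9.09 in clock-positive cells, against 9.44 in clock-negative cells (change −0.35 ± 0.06).

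Of 12 other antagonists and antagonist co-receptors tested, 4 were higher and 2 lower as deposited, and 2 and 1 after cyclic loess. Under both scalings the 2 that rose were Igfbp4, an insulin-like growth factor binding protein that also inhibits Wnt signals (0.81 ± 0.07), and Shisa2, which holds Frizzled and FGF receptors inside the cell (0.76 ± 0.09).

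**Figure D3:**
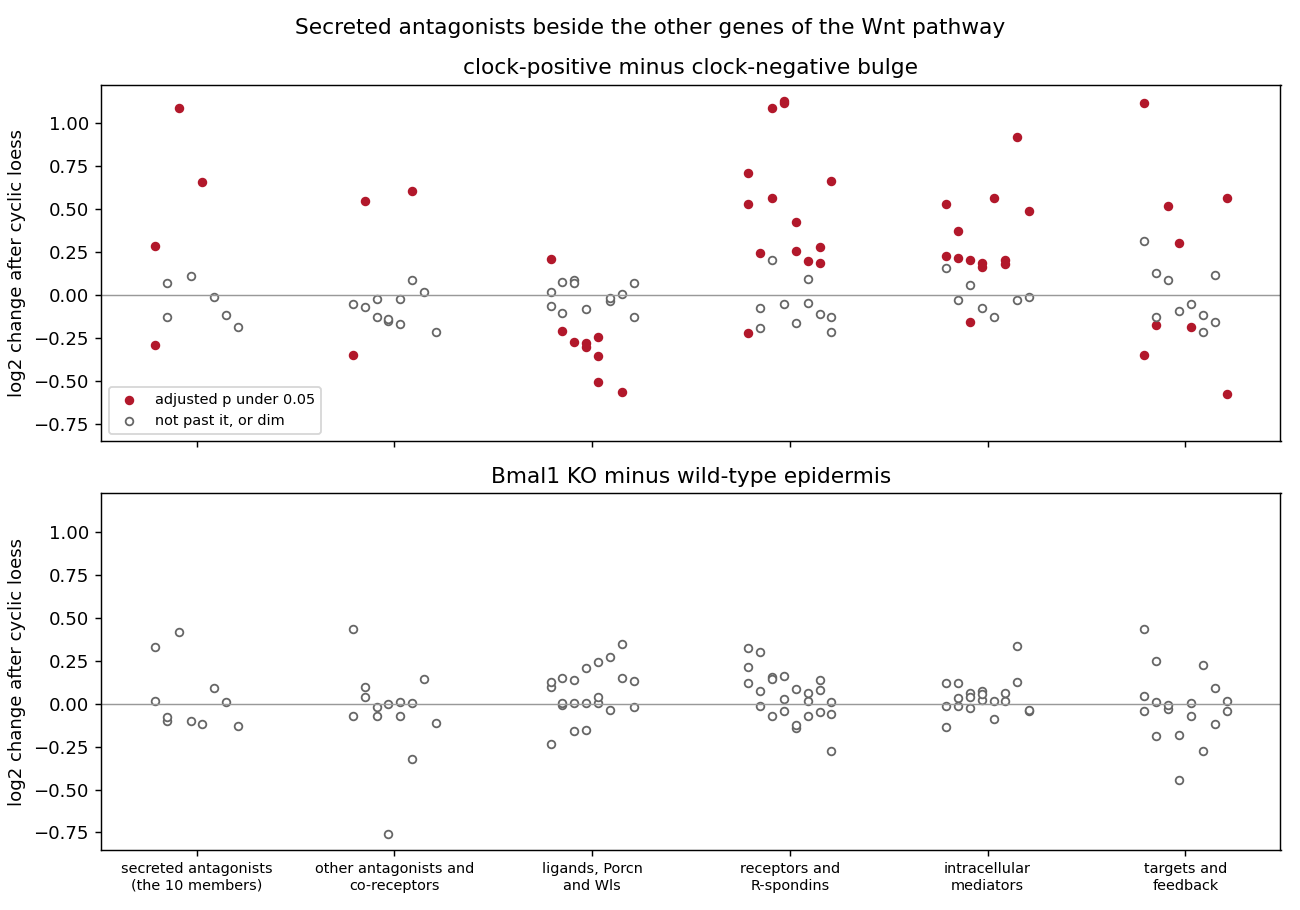
Log2 change after cyclic loess (vertical axis) of each gene in the secreted antagonists and 5 other lists of Wnt pathway genes; the bulge comparison is above and the epidermis comparison below. Filled points passed an adjusted p under 0.05; in the bulge receptors rose in 13 of 24 and ligands fell in 8 of 18, and in the epidermis 0 genes of these lists passed.

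The second comparison asks whether loss of Bmal1 in the epidermis changes the same inhibitors. No member passed the test: 0 of 10 passed as deposited or after cyclic loess. Of 19938 genes, 0.0802% passed as deposited, 0.0251% with the KO higher and 0.0552% with it lower. After cyclic loess it was 0.336%, with shares of 0.171% and 0.166%. With the dim genes left out, which kept 6 members, 0.193% passed as deposited, 0.0788% with the KO higher and 0.115% with it lower, and the shares after cyclic loess were 0.609%, 0.315% and 0.294% in that order. At an unadjusted p under 0.05 in limma there were 2 of these 6 members under each scaling, Dkk3 and Sostdc1, where 7.96% of 13957 genes were under it as deposited and 13.4% after cyclic loess. The median change of the 10 was −0.04 as deposited and −0.03 after cyclic loess, against 0.00292 and 0.00539 over all genes.

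Dkk3 read 9.03, 8.87 and 8.85 in KO arrays, against 8.25, 8.66 and 8.69 in wild-type arrays. All KO arrays lay above all wild-type arrays, and wild-type array 1 was the lowest by a wide margin. The log2 change was 0.38 ± 0.14 (95% interval 0.06 to 0.70, adjusted p = 0.489 in limma), and 0.42 ± 0.10 after cyclic loess (adjusted p = 0.129). Without wild-type array 1 it was 0.24 (adjusted p = 0.549).

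Sostdc1 read 11.74, 11.41 and 11.41 in KO arrays, against 10.95, 11.24 and 11.35 in wild-type arrays. The groups again did not overlap, by a narrow gap between KO arrays 2 and 3 and wild-type array 3. The change was 0.34 ± 0.15 (adjusted p = 0.615 in limma) and 0.33 ± 0.10 after cyclic loess (adjusted p = 0.237). Without wild-type array 1 it was 0.22, and without KO array 1 it was 0.23.

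Sfrp1 did not share this order in the epidermis. It read 9.45, 9.20 and 9.00 in KO arrays, against 9.30, 9.36 and 9.43 in wild-type arrays, with KO array 1 above and KO arrays 2 and 3 below every wild-type array. The change was −0.15 ± 0.13 (95% interval −0.45 to 0.16, adjusted p = 0.920 in limma). Dkk1 averaged 7.24 in KO and 7.24 in wild-type arrays, and its interval ran from −0.24 to 0.23.

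The other members were dim or spread. Dkk2 had the widest KO spread of the 10, with 6.51, 6.93 and 7.20 in KO arrays, against 7.17, 6.83 and 6.95 in wild-type arrays, and a change of −0.10 ± 0.18. Wif1 was at −0.08 ± 0.11, Sfrp5 at −0.11 ± 0.09 and Frzb at −0.08 ± 0.09. Sfrp2 was at 0.12 ± 0.08, with 6.02, 6.09 and 6.15 in KO arrays, against 5.97, 5.97 and 5.98 in wild-type arrays, and Sfrp4 was at 0.03 ± 0.13. Sfrp2, Sfrp4, Sfrp5 and Frzb lay under the filter on dim genes here. The groups of 3 members did not overlap as deposited, all with the KO higher (Dkk3, Sostdc1 and Sfrp2), where 4.33% of 19938 genes were apart with the KO higher and 7.33% with it lower (11.7% in all). After cyclic loess 5 did not overlap, 3 higher and 2 lower (Sfrp1 and Frzb), where 8.88% of genes were higher and 9.83% lower (18.7% in all).

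**Figure D4:**
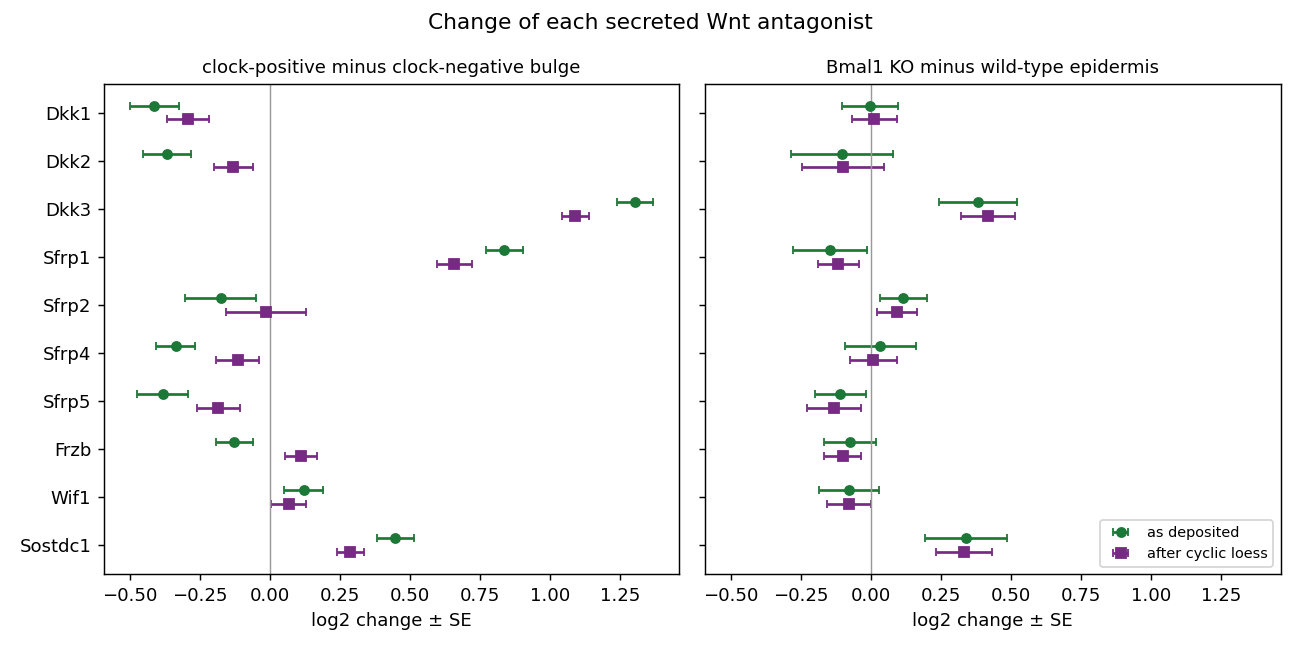
Log2 change of each member with its standard error (horizontal axis), as deposited (circles) and after cyclic loess (squares), for clock-positive minus clock-negative bulge on the left and Bmal1 KO minus wild-type epidermis on the right. In the bulge Dkk3 is at 1.30 and 1.09 and Dkk1 at −0.41 and −0.29; in the epidermis the bars of Dkk3 (0.38 and 0.42) and Sostdc1 (0.34 and 0.33) lie above 0 but 0 members passed the threshold.

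The other Wnt lists had no calls in the epidermis. As deposited and after cyclic loess, 0 of 12 other antagonists, 0 of 19 ligand genes, 0 of 21 receptor and R-spondin genes, 0 of 20 mediators and 0 of 12 targets were called. The 2 genes with the smallest p in each list, Apcdd1 standing in 2 of them, were Apcdd1, a membrane inhibitor of Wnt signals (0.44 ± 0.14, adjusted p = 0.367 in limma), Dkkl1 (−0.78 ± 0.36), Wnt2b (−0.26 ± 0.11), Wnt5b (0.24 ± 0.10), Rnf43 (−0.30 ± 0.16), Fzd1 (0.29 ± 0.17), Tcf7l1 (0.30 ± 0.14), Tle1 (−0.17 ± 0.18) and the cyclin gene Ccnd1 (−0.43 ± 0.19). Fibroblast markers gave 0 calls of 6, with array means of 6.79 to 6.88 in KO and 6.76 to 6.80 in wild-type cells, and papilla markers 0 of 2. The bulge markers gave 0 of 8, with array means of 8.77 to 8.90 in KO and 8.69 to 8.96 in wild-type cells. T cell markers averaged 7.94 to 7.99 in KO arrays and 8.23 to 9.47 in wild-type arrays, and the groups of all 6 were apart, 5 with the KO lower and Thy1 higher. Of 4 tested, Thy1 was called higher under both scalings and Cd3g lower after cyclic loess (−2.62, adjusted p = 0.0476 in limma; as deposited −2.66, adjusted p = 0.0662). The part of T cells in the members' values was not tested.

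Because the sets cannot be compared on the log2 scale, the place of each member was also taken as its percentile among the 28101 probe sets measured on all 12 arrays, as a description. Sostdc1 stood at a mean percentile of 96.9 in clock-positive and 95.9 in clock-negative bulge, 94.5 in KO and 92.5 in wild-type epidermis. Sfrp1 stood at 96.4, 93.3, 70.7 and 72.6 in the same order of groups, and Dkk3 at 94.4, 85.1, 66.5 and 61.1. Each of these genes stood highest in clock-positive bulge cells. Wif1 was at 60.8 in clock-positive and 59.5 in clock-negative bulge, and at 31.5 in KO and 33.5 in wild-type epidermis. Sfrp5 and Sfrp2 also stood lower in the epidermis, at 15.7 and 17.8 in KO, against 36.4 and 42.5 in clock-positive bulge. Dkk1 kept to the middle, from 40.6 to 49.9, Dkk2 lay between 29.5 and 35.8, and Sfrp4 and Frzb lay between 13.2 and 21.2. Over the arrays, the percentiles of clock-positive and clock-negative cells overlapped for Dkk2, Sfrp2, Sfrp4, Frzb and Wif1 and were apart for the other 5. Those of KO and wild-type cells overlapped for Dkk1, Dkk2, Sfrp1, Sfrp2, Sfrp4, Sfrp5 and Wif1 and were apart for Dkk3, Sostdc1 and Frzb. The share of all probe sets apart on percentiles was not taken, so these counts show nothing particular to the members. On log2 values as deposited, 66.4% of genes were apart in the bulge and 11.7% in the epidermis. After cyclic loess the shares were 47.5% and 18.7%. The bulge and epidermis cells also differ in age, pool size and mouse line, and their arrays appear to have been normalized apart. None of these can be told apart from tissue.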

How the data were processed

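Per the submitters' processing notes, the deposited log2 intensities were made by the authors with RMA; its version, settings and whether replicates shared a run are not given in the sources used here. Per the labels' protocols, RNA was amplified with a whole transcriptome kit. Symbols came from GEO's platform annotation; Entrez identifiers of 21698 of 21789 probe sets with 1 symbol matched RefSeq (GRCm38.p6) and changed 0 symbols. For genes with several probe sets, the one measured on all 12 arrays and then the highest mean was kept. Each comparison was fitted on its own 6 arrays with limma 3.58.1 (lmFit, eBayes) in R 4.3.3, two-sided, with Benjamini-Hochberg adjustment over all genes tested, and the code was tested on simulated data. Cyclic loess ran over all probe sets of a set. Values after ± are standard errors. The p-values set each difference between groups against the spread between these samples, moderated over all genes tested. The labels give pooled mice per sample but not whether pools shared litters or days. Whether that spread stands for independent groups of mice is thus not known, and precision is limited by having 3 arrays a group.

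The members and lists were chosen with earlier results of these data known, and the bins by level were added after the members' values were seen. All 10 members were named. In other Wnt lists the rule named up to 4 genes with the smallest p called under both scalings, or else the 2 with the smallest p, and for markers the brightest. Alternatives were quantile normalization, median centring, other filters, a replicate block, a variance trend, all 12 arrays in 1 fit, all probe sets and leaving out each array. No protein sequence was used here.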

Additional observations from a re-analysis of the deposited data

How the results depend on the processing

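In the bulge, Dkk3, Sfrp1 and Sostdc1 were called higher under each of the 15 alternatives run, and Dkk1 lower under each in which it was tested. The count of members called was 5 as deposited and 3 when the dimmest 50% were dropped, with 4 members tested, and 5 to 6 without 1 array, Sfrp2 being added without clock-negative array 3. Median centring added Wif1 as higher (0.26, adjusted p = 0.00733 in limma) and kept Sfrp5 as lower (−0.24, adjusted p = 0.0207). In the fit of all genes after median centring, Dkk2 was also lower (−0.23, adjusted p = 0.0294 in limma). Sfrp4 did not pass there (−0.19, adjusted p = 0.0524). Over all genes the 8866 calls became 5739 after cyclic loess, 5809 after quantile normalization and 5301 with all 12 arrays in 1 fit. The sign turned for Frzb after cyclic loess (0.11), quantile normalization (0.098) and median centring (0.016), and for Sfrp2 after quantile normalization (0.00433). In the epidermis 0 members were called under any alternative, while the 27 calls over all genes became 85 after cyclic loess, 49 after quantile normalization, 16 with no filter, 47 with the dimmest 50% dropped, 57 with a variance trend and 407 with all 12 arrays in 1 fit. They were 98, 8 and 16 without wild-type array 1, 2 or 3, and 16, 7 and 8 without KO array 1, 2 or 3. Members near 0 changed sign there: Dkk1 after cyclic loess (0.013) and between −0.056 and 0.034 without 1 array, Dkk2 between −0.26 and 0.084, and Sfrp4 after quantile normalization (−0.017) and between −0.053 and 0.13. With the replicate block the bulge calls were 9351, 5 of them members, and the epidermis calls 3, 0 of them members. Deviations of same-numbered arrays correlated at 0.24, 0.26 and −0.06 in the bulge and at −0.44, 0.04 and −0.52 in the epidermis. Clock-positive arrays 1 and 2 were closest to the clock-negative array of their own number, and clock-positive array 3 was not. KO arrays 1, 2 and 3 were each closest to a wild-type array of another number, for KO array 2 by little (0.051, against 0.043 for its own number). Deviations were taken from the mean of each group, so these correlations depend on one another. Whether the replicate numbers pair the samples was not tested. The cause of the shifts between the alternatives was not tested. Background was not measured here. Near it a log2 change can understate a difference, and whether it did so for the dim members was not tested. Dkk2 and Sfrp4, both dim in the bulge, went from −0.37 and −0.34 as deposited to −0.13 and −0.11 after cyclic loess.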
